A study of Mus musculus with 11 samples.

Results

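The FGF receptor and ERK feedback genes described here are 10 mouse genes, Fgfr1, Fgfr4, Dusp4, Dusp6, Spry1, Spry2, Spry4, Spred1, Etv4 and Etv5, of the 20368 gene symbols in 2 expression tables. They were chosen by name, with the values of both tables known: the rule states that Fgfr4 was lower and that Dusp4 and Etv4 were higher in both experiments. Their expression changes are therefore a description without a test. All 10 were found in both tables, and all 10 passed the filter of a mean of 1 FPKM or more (fragments per kilobase, scaled to library size, so that levels allow for gene length).

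The cells were C2C12, an immortalised mouse myoblast line labelled as strain C3H, which keeps dividing in high serum and forms multinucleate myotubes once serum is lowered. In the first experiment, RNA interference against DRR-RNA, an RNA made from an enhancer (DRRi), was set against RNA interference aimed at GFP (GFPi). In the second, DRR-RNA was overexpressed (pHAN_DRR1.2) and set against overexpressed GFP (pHAN_GFP), which addresses the opposite manipulation of the same RNA. All 4 polyA RNA libraries were taken after 4 h in differentiation medium with 2% horse serum and insulin, transferrin and selenium, so the controls were in this medium too. The other libraries used are chromatin immunoprecipitations (ChIP-seq) of cells labelled with no such manipulation: MyoD, MyoG and H3K4me1 in myotubes at 48 h in that medium, and MyoD and H3K4me1 in proliferating myoblasts in 10% fetal bovine serum. Each group was 1 library. How the interfering RNAs and vectors were delivered, and whether cells were selected or pooled, is not given in the sources used here.

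FGF receptors are receptor tyrosine kinases that signal through Ras, Raf and MEK to the kinase ERK. ERK signalling switches on its own brakes: Dusp4 and Dusp6 encode phosphatases that remove the activating phosphates of ERK, and Sprouty and Spred proteins act further up, on the route to Ras and Raf. Etv4 and Etv5 encode ETS transcription factors of the PEA3 group that are induced by FGF and ERK signals. In myoblasts FGF favours division and holds back differentiation, which is driven by MyoD and, later, MyoG, which bind E-boxes (CANNTG).

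Promoter sequence is shown for 4 members: Fgfr4, the receptor that was lower in both experiments, Dusp6 and Spry2, where a MyoD peak lay at or near the 5′ edge of the mm9 locus, and Etv5, which had no MyoD peak within 30 kb in myoblasts. Spred1, which is not shown, also had a MyoD peak near this edge, 0.788 kb upstream in myotubes. Each is the 250 bases before a RefSeq start, read 5′ to 3′ on the gene's strand in GRCm38.p6, with E-boxes CANNTG and the ETS core CCGGAA in capitals. The peaks were mapped to mm9, and no position was carried from one build to the other.
Fgfr4, chr13:55152568-55152817, plus strand: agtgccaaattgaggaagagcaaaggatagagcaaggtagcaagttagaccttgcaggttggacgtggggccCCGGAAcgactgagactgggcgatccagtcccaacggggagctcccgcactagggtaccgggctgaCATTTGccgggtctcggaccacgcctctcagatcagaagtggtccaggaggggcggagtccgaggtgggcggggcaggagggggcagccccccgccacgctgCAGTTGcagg
Dusp6, chr10:99262981-99263230, plus strand: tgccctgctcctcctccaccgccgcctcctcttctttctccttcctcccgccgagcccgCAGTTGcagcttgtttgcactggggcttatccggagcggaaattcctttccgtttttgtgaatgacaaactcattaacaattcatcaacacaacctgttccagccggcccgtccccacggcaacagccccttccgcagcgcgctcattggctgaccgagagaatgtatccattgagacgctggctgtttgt
Spry2, chr14:105896820-105897069, minus strand: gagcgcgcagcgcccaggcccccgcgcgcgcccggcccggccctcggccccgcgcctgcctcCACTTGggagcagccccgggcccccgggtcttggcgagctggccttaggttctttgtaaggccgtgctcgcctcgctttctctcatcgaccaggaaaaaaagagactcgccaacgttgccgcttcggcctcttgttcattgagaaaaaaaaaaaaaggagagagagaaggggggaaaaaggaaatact
Etv5, chr16:22439571-22439820, minus strand: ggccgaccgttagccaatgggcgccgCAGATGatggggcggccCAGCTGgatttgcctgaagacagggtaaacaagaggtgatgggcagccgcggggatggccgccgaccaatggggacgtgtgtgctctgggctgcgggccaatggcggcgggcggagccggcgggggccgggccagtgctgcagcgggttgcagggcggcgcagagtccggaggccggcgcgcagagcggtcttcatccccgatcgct

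RefSeq promoters were at hand for 6 of the 10 members: these 4, Spry1 and Spred1. The Fgfr4 window held 2 E-boxes and 1 CCGGAA, and the Dusp6 and Spry2 windows held 1 E-box each. The Etv5 window held 2 E-boxes, of which 1 was CAGCTG, a form that MyoD binds, while the window at the other Etv5 start, 1202 bases further in, held none. Spry1 had 2 E-boxes and Spred1 had none. Over 32851 promoters of the same length, 66.2% held a CANNTG, 13.0% a CAGCTG and 12.0% a CCGGAA on either strand, every CAGCTG being also a CANNTG. The AP-1 site TGANTCA, present in 6.75% of these promoters, occurred in none of the members' windows. A match of letters is not a bound site.

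The libraries themselves differed in other ways. Summed FPKM per library was 411626 in DRRi and 400822 in GFPi, and 393547 in pHAN_DRR1.2 and 383311 in pHAN_GFP, with 10516 to 10694 genes at 1 FPKM or more. DRR-RNA is not a coding sequence and its level was not analysed here, so how far each manipulation changed it is not shown. Myog, the gene of MyoG, was at 2.61 FPKM in DRRi and 10.2 FPKM in GFPi. It was at 65.8 in pHAN_DRR1.2 against 26.3 in pHAN_GFP. Whether these Myog differences follow from DRR-RNA was not tested. Rpl35, a ribosomal protein gene, stood apart in both experiments, at 976 FPKM in DRRi and 3.55 FPKM in GFPi and at 659 in pHAN_DRR1.2 against 2.66 in pHAN_GFP. Muscle markers summed to 442 FPKM in DRRi and 541 FPKM in GFPi (3 of 7 lower by 1.5-fold or more, none higher). They summed to 1163 in pHAN_DRR1.2 against 924 in pHAN_GFP (2 of 8 higher, none lower). Of all genes kept, 4.66% were higher and 3.5% lower by as much in DRRi. In pHAN_DRR1.2 it was 1.38% and 0.654%, and the same shares are the background of the other marker counts. Fibroblast and smooth muscle markers summed to 1112 FPKM in DRRi and 961 FPKM in GFPi (4 of 7 higher, none lower). They summed to 2730 in pHAN_DRR1.2 against 3084 in pHAN_GFP (2 of 8 lower, none higher). The largest part of these sums was Acta2, under 1.5-fold each time. It was at 637 FPKM in DRRi and 475 FPKM in GFPi and at 1791 in pHAN_DRR1.2 against 2024 in pHAN_GFP. By any amount, 6 of the 7 were above their control in DRRi, while Col3a1 was at 160 FPKM against 235 in GFPi. Of the endothelial, blood and neural markers 6 of 8 were under 1 FPKM in each table, with the leukocyte gene Ptprc at 0 in DRRi and GFPi, and the summed level was 37.3 FPKM in DRRi and 27.0 FPKM in GFPi and 93.2 in pHAN_DRR1.2 against 52.7 in pHAN_GFP. Most of these sums was the tubulin gene Tubb3, at 35.5 FPKM in DRRi and 24.5 FPKM in GFPi and at 91.0 in pHAN_DRR1.2 against 51.0 in pHAN_GFP, 1 of 2 kept markers of the list and the 1 that passed 1.5-fold there. Of the adipocyte and bone markers 6 of 8 were under 1 FPKM in each table, and they summed to 24.0 FPKM in DRRi and 23.7 FPKM in GFPi and to 18.0 in both pHAN libraries. The part of these differences in the results below was not tested, and in bulk RNA fewer cells of a type and less RNA per cell cannot be told apart.

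Among the receptors, Fgfr4, a receptor of muscle progenitors and myoblasts, was at 9.37 FPKM in DRRi and 16.2 FPKM in GFPi, and at 15.4 in pHAN_DRR1.2 against 25.8 in pHAN_GFP. It was thus lower with either manipulation, by a log2 change of -0.73 in DRRi and of -0.71 in pHAN_DRR1.2, where log2 changes are of treated over control after adding 1 FPKM to each. In the authors' deposited table the q of the DRRi difference was 0.375, and in the authors' deposited table of the other experiment it was 0.00849. Fgfr1, the main FGF receptor of dividing myoblasts, was at 25.9 FPKM in DRRi and 21.8 FPKM in GFPi, and at 27.2 in pHAN_DRR1.2 against 24.3 in pHAN_GFP, differences of 0.24 and 0.16 that stayed under 1.5-fold. Its level is the sum of 3 coding sequences, and in both tables the authors' status for all 3 was a failed test, so no usable q exists for Fgfr1 and the FPKM of each coding sequence may be unreliable. In the DRRi experiment 1 coding sequence was at 10.4 FPKM in DRRi and 1.67 FPKM in GFPi and another at 4.22 in DRRi against 10.2 in GFPi, while the remaining one was at 11.2 in DRRi against 9.95 in GFPi. In the pHAN experiment the same 3 were at 1.60, 16.0 and 9.55 FPKM in pHAN_DRR1.2 against 0.0166, 15.7 and 8.55 FPKM in pHAN_GFP. The other 9 members had 1 coding sequence each.

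**Figure D1:**
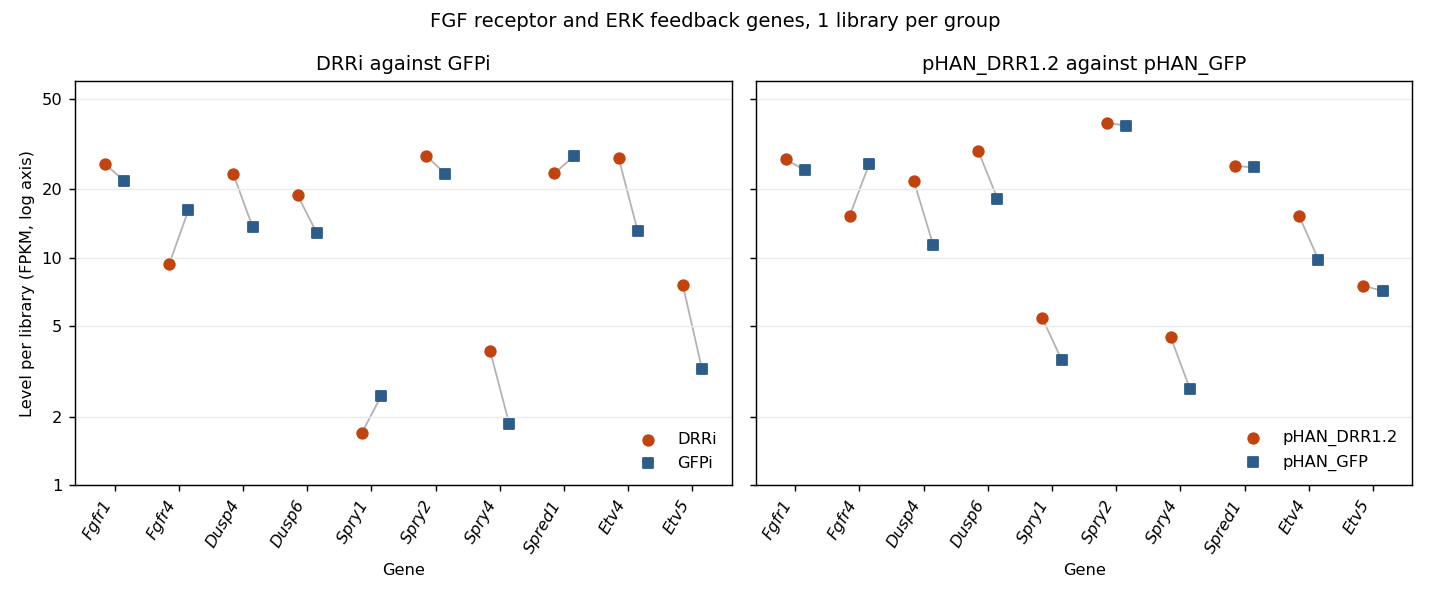
Level of each of the 10 genes (FPKM, log axis) in DRRi and GFPi (left) and in pHAN_DRR1.2 and pHAN_GFP (right). Each symbol is 1 library and lines join the libraries of an experiment, with Fgfr4 at 9.37 against 16.2 FPKM and 15.4 against 25.8 FPKM and Dusp4 at 23.4 against 13.7 FPKM and 21.7 against 11.4 FPKM.

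Of the phosphatases, Dusp4, which acts on ERK in the nucleus, was at 23.4 FPKM in DRRi and 13.7 FPKM in GFPi, and at 21.7 in pHAN_DRR1.2 against 11.4 in pHAN_GFP. It was higher in both experiments, with log2 changes of 0.73 and 0.87 and, in the authors' deposited tables, a q of 0.385 for DRRi and 0.00144 for pHAN_DRR1.2. Dusp6, the ERK phosphatase of the cytoplasm, was at 18.9 FPKM in DRRi and 12.9 FPKM in GFPi. Its log2 change of 0.52 there fell short of 1.5-fold (q = 0.827 in the authors' deposited table). In pHAN_DRR1.2 it was at 29.6 FPKM against 18.2 in pHAN_GFP, a log2 change of 0.67 (q = 0.0184 in the authors' deposited table). Both phosphatase genes thus lay above their controls in both experiments.

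The Sprouty and Spred genes did not move as a group. Spry4 was at 3.89 FPKM in DRRi and 1.85 FPKM in GFPi, a log2 change of 0.78, and at 4.47 in pHAN_DRR1.2 against 2.65 in pHAN_GFP, a log2 change of 0.5849 against the 0.5850 that makes 1.5-fold. As a plain ratio of FPKM, which is not damped by the added 1 FPKM, Spry4 was 2.10 times its control in DRRi and 1.69 times in pHAN_DRR1.2. Spry1 had opposite signs, at 1.69 FPKM in DRRi and 2.46 FPKM in GFPi (-0.36) and at 5.42 in pHAN_DRR1.2 against 3.57 in pHAN_GFP (0.49). Both log2 changes were under 1.5-fold, while as a plain ratio Spry1 was 0.689 times its control in DRRi and 1.52 times in pHAN_DRR1.2. Spry2, the most abundant Sprouty gene, was at 28.2 FPKM in DRRi and 23.5 FPKM in GFPi (0.26) and at 39.3 in pHAN_DRR1.2 against 38.2 in pHAN_GFP (0.04). Spred1, whose protein restrains Ras together with neurofibromin, was at 23.5 FPKM in DRRi and 28.0 FPKM in GFPi (-0.24) and at 25.4 in pHAN_DRR1.2 against 25.0 in pHAN_GFP (0.02). None of these 4 genes had a q under 0.05 in the authors' deposited tables, the lowest being 0.143 for Spry4 in pHAN_DRR1.2.

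The ETS factor Etv4 was at 27.6 FPKM in DRRi and 13.1 FPKM in GFPi, and at 15.3 in pHAN_DRR1.2 against 9.82 in pHAN_GFP. Its log2 changes were 1.02 and 0.59, the second just past 1.5-fold (0.57, under it, when all changes are centred on their median), and q was 0.0564 for DRRi and 0.175 for pHAN_DRR1.2 in the authors' deposited tables. Its close relative Etv5 was at 7.62 FPKM in DRRi and 3.24 FPKM in GFPi, a log2 change of 1.02 (q = 0.0666 in the authors' deposited table). In pHAN_DRR1.2 Etv5 was at 7.53 FPKM against 7.17 in pHAN_GFP, a log2 change of 0.06. As plain ratios of FPKM, Etv4 was 2.11 times its control in DRRi and 1.56 times in pHAN_DRR1.2, and Etv5 was 2.35 times and 1.05 times. Whether the pair differ was not tested.

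Counted over the 10 genes, 4 were higher by 1.5-fold or more in DRRi (Dusp4, Spry4, Etv4 and Etv5) where 4.66% of all 10577 genes kept were, and 1 was lower (Fgfr4) where 3.5% were. In pHAN_DRR1.2, 3 were higher (Dusp4, Dusp6 and Etv4) against 1.38% of 10699 genes kept, and 1 was lower (Fgfr4) against 0.654%. Nothing is read from these shares, since the genes were chosen on the same values. At 2-fold, Etv4 and Etv5 remained in DRRi (0.898% of genes kept were that much higher and 0.804% lower) and none of the 10 in pHAN_DRR1.2 (0.318% higher and 0.0841% lower). With a q under 0.05 in the authors' deposited tables, none of the 10 was called in DRRi, where 0.643% of genes kept were called higher and 0.577% lower, and Dusp4, Dusp6 and Fgfr4 were called in pHAN_DRR1.2, where 1.03% of genes kept were called higher and 0.589% lower. The median log2 change of the 10 was 0.39 in DRRi and 0.32 in pHAN_DRR1.2, beside 0.02 over all genes kept in each. Above 0 by any amount were 7 of 10 in DRRi, against 53.5% of genes kept, and 9 of 10 in pHAN_DRR1.2, against 55.6%.

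Dusp4, Etv4 and Fgfr4 had the same direction in 2 experiments that manipulate DRR-RNA in opposite ways. Over the 10398 genes kept in both, 22 (0.212%) were 1.5-fold or more higher in both and 18 (0.173%) lower in both. Opposite directions were found for 26 genes (0.25%) that were lower in DRRi and higher in pHAN_DRR1.2 and 8 (0.0769%) that were higher in DRRi and lower in pHAN_DRR1.2. The experiments have separate controls and no library in common.

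**Figure D2:**
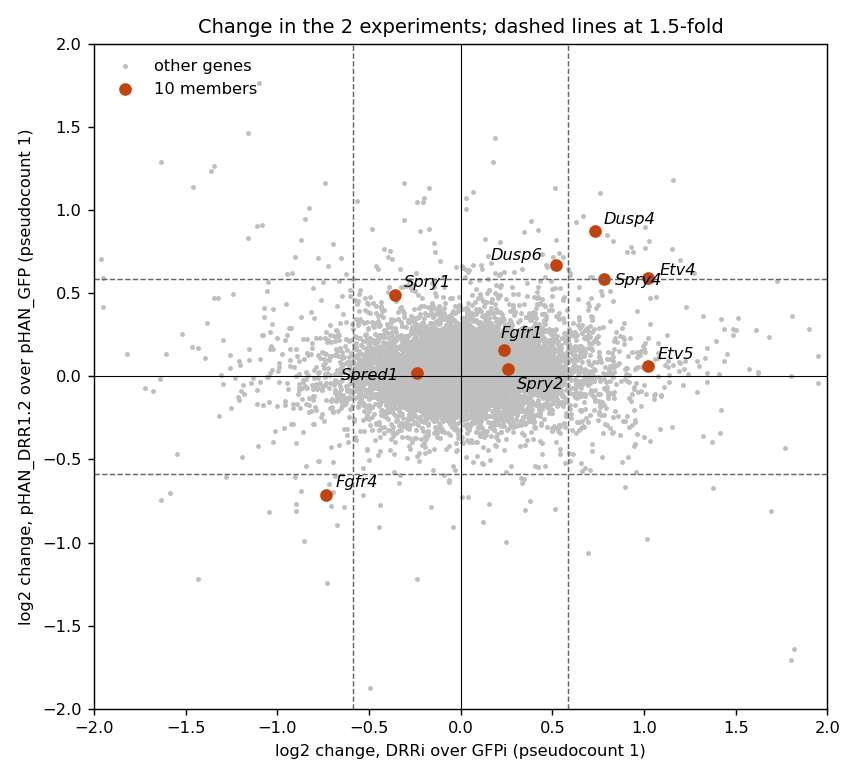
Log2 change in DRRi over GFPi (horizontal axis) against log2 change in pHAN_DRR1.2 over pHAN_GFP (vertical axis) for 10398 genes, 1 point a gene, with the 10 genes in colour and dashed lines at 1.5-fold. Dusp4 and Etv4 lie past both lines at the upper right and Fgfr4 past both at the lower left, Spry4 sits on the horizontal line, and 5 genes beyond a log2 change of 2 are not drawn.

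By Euclidean distance between pairs of log2 changes, among 7928 genes averaging 5 FPKM or more in both tables, the genes nearest to Fgfr4 were Capn6 (distance 0.0387), a calpain, Sox8 (0.0664), a SOX transcription factor, and Daam2 (0.0727), a formin. Capn6 was at 20.8 FPKM in DRRi and 34.3 FPKM in GFPi and at 17.5 in pHAN_DRR1.2 against 29.1 in pHAN_GFP. Nearest to Dusp4 were Areg (0.118), which encodes amphiregulin, a ligand of the EGF receptor, at 10.8 FPKM in DRRi and 5.65 FPKM in GFPi and 9.04 in pHAN_DRR1.2 against 4.72 in pHAN_GFP, the laminin receptor subunit Itga6 (0.217) and the tubulin Tubb3 (0.219). Nearest to Etv4 were the ribosomal protein gene Rpl30 (0.119), whose reads may be shared with near-identical copies, the cyclin Ccnd2 (0.123) and Apol9a (0.177). Likeness here rests on 2 values per gene.

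The rest of the pathway was looked at through 8 gene lists. These lists were chosen with earlier results of these data known, so their counts and medians are a description without a test. Outside the 10 genes they hold 122 genes, of which 86 were kept in the DRRi experiment, with 10 higher and 4 lower by 1.5-fold (4.66% and 3.5% of all genes kept were) and a median log2 change of 0.09. In the pHAN experiment 89 were kept, with 4 higher and none lower (1.38% and 0.654% of all genes kept were) and a median of 0.11. The same shares are the background of the counts for each list. Of 22 FGF family genes, a list labelled FGF ligands in the figure, 3 were kept in the DRRi experiment, with 2 higher, none lower and a median of 0.95. With no filter on low values that median was 0.00, and at a mean of 5 FPKM or more, where Fgf11 alone is left, it was -0.38. Fgf2, the basic FGF that myoblasts respond to, was at 3.12 FPKM in DRRi and 0.522 FPKM in GFPi (1.44), and Fgf7 at 4.09 in DRRi against 1.63 in GFPi (0.95), while Fgf11 was at 5.93 in DRRi against 8.05 in GFPi (-0.38). The q of Fgf2 was 0.0705 in the authors' deposited table. In the pHAN experiment 4 of the FGF family genes were kept and none passed 1.5-fold.

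The list labelled FGF receptors and co-receptors in the figure holds FGF receptors, syndecans, a glypican, and klotho, Fgfbp and Flrt genes. Of its 17 genes 10 were kept in the DRRi experiment, of which 1 was higher and 3 lower with Fgfr4 included. The glypican Gpc1 was at 171 FPKM in DRRi and 276 FPKM in GFPi (-0.69), the syndecan Sdc2 at 64.0 in DRRi against 98.8 in GFPi (-0.62) and the syndecan Sdc3 at 29.5 in DRRi against 18.0 in GFPi (0.68). In the pHAN experiment Fgfr4 alone of 9 passed, and the list medians were 0.04 in DRRi and 0.13 in pHAN_DRR1.2. Of 23 kept adaptors and kinases of the cascade, 2 were higher in DRRi, the docking protein Gab1 (8.32 FPKM against 3.88 in GFPi, 0.93) and the scaffold Ksr1 (2.91 FPKM against 1.2 in GFPi, 0.83), and none lower. None of 22 passed in pHAN_DRR1.2, and the list medians were -0.06 in DRRi and 0.02 in pHAN_DRR1.2.

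MAP kinase phosphatases had a median of 0.34 in DRRi, with 2 of 9 higher, and of 0.34 in pHAN_DRR1.2, with 3 of 10 higher, and none was lower in either. This includes Dusp4 and Dusp6, chosen with their values known: without them the median was 0.22 in DRRi, with 1 of 7 higher, and 0.29 in pHAN_DRR1.2, with 1 of 8 higher, beside 0.02 over all genes kept in each. These were Dusp16, which acts on stress kinases, at 7.08 FPKM in DRRi and 4.11 FPKM in GFPi (0.66), and Dusp5, a nuclear ERK phosphatase, at 9.40 in pHAN_DRR1.2 against 5.54 in pHAN_GFP (0.67, q = 0.428 in the authors' deposited table). For DRRi the authors' deposited q was 0.0319 for a coding sequence of Dusp16 and 0.99995 for another. ERK-induced genes outside the 10 had a median of 0.40 in DRRi, with 3 of 15 higher, 1 lower and 10 above 0 (53.5% of genes kept were), and of 0.33 in pHAN_DRR1.2, with 2 of 16 higher and all 16 above 0, as were 55.6% of genes kept. This list was also chosen with earlier results of these data known, so nothing is read from these shares. Fosl1, an AP-1 subunit, was higher in both, at 36.7 FPKM in DRRi and 23.9 FPKM in GFPi (0.60) and at 29.2 in pHAN_DRR1.2 against 18.8 in pHAN_GFP (0.61). In the authors' deposited tables its q was 0.806 for DRRi and 0.289 for pHAN_DRR1.2. Ier3, an early response gene, was at 14.7 FPKM in DRRi and 7.69 FPKM in GFPi (0.85) and Maff, a small MAF factor, at 8.15 in DRRi against 4.86 in GFPi (0.64), and their q was 0.544 and 0.811 in the authors' deposited table. The early growth response factor Egr3 was at 1.60 in DRRi against 3.06 in GFPi (-0.64), with Egr1 at -0.05 and Egr2 at -0.33. In pHAN_DRR1.2 the same 3 genes were at 0.49 (Egr3), 0.47 (Egr1) and 0.42 (Egr2). Phlda1 was at 58.1 FPKM in pHAN_DRR1.2 against 36.1 in pHAN_GFP (0.67), and its q was 0.0154 in the authors' deposited table.

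Sprouty, Spred and other inhibitors had medians of 0.13 and 0.11, and outside the 10 genes the member past 1.5-fold was Errfi1, an inhibitor of the EGF receptor, at 70.2 FPKM in pHAN_DRR1.2 against 44.5 in pHAN_GFP (0.65). In the authors' deposited table its q was 0.0164. Of 12 ETS factors, Etv4 and Etv5 were the only ones past 1.5-fold in DRRi and Etv4 the only one in pHAN_DRR1.2, with list medians of 0.15 and 0.08. Etv4 and Etv5 were chosen with their values known. Without them the list median was 0.10 in DRRi and 0.007 in pHAN_DRR1.2, beside 0.02 over all genes kept in each. Among other receptor tyrosine kinases, Egfr was at 8.32 FPKM in DRRi and 3.93 FPKM in GFPi (0.92). Musk, the muscle kinase of the neuromuscular junction, was at 5.93 in DRRi against 12.2 in GFPi (-0.93). Both levels are sums over coding sequences, some of which the authors did not test for Musk. In the authors' deposited table for DRRi the lowest q was 0.105 for Egfr and 0.281 for Musk. None of 12 genes of this list passed 1.5-fold in pHAN_DRR1.2.

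**Figure D3:**
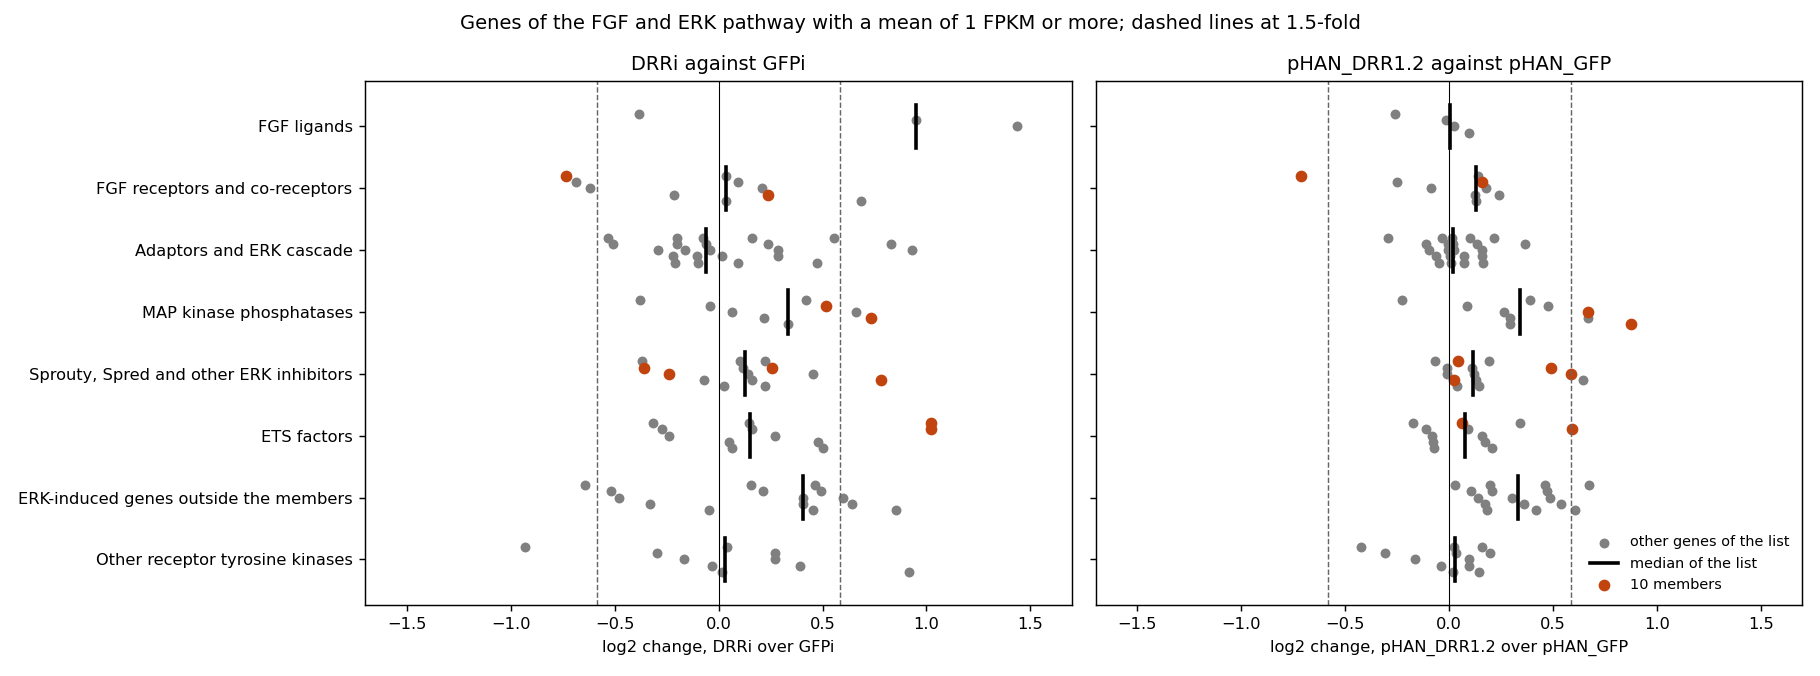
Log2 change of each kept gene (1 point) in 8 lists of the FGF and ERK pathway, DRRi over GFPi on the left and pHAN_DRR1.2 over pHAN_GFP on the right. The vertical bar is the list's median, coloured points are the 10 genes and dashed lines mark 1.5-fold, and the list of ERK-induced genes lies wholly above 0 in pHAN_DRR1.2.

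MyoD and MyoG binding was read from the authors' peak lists, each with a peak score of the authors that was used only within its own list and that saturates from 3100 upward. Within 30 kb of the 10 loci lay 40 MyoD peaks in myotubes and 22 in myoblasts, and 40 MyoG peaks in myotubes. All 10 loci had a myotube MyoD peak, against 68.9% of all loci and 86.5% of loci of genes kept. For MyoG it was also 10 of 10, against 66.2% of all loci and 83.6% of those of genes kept. In myoblasts 9 of 10 had a MyoD peak, against 48.6% of all loci and 61% of those of genes kept. Per megabase of window, the 10 loci held 47.3 MyoD peaks in myotubes against 34.7 for loci of genes kept, and 26.0 in myoblasts against 13.3. These are descriptions of 10 loci in 1 library each. Of the 40 myotube MyoD peaks, 30 (75%) overlapped a MyoG peak, against 66.9% of the whole list, and 18 (45%) a myoblast MyoD peak, against 34.1%. Overlap with myotube H3K4me1 domains was lower than in the lists, at 30 of 40 (75%) against 85.0% for myotube MyoD peaks and 31 of 40 (77.5%) against 84.5% for MyoG peaks.

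The Fgfr4 locus (mm9, chr13:55254179-55270120) carried a cluster of MyoD peaks with high scores at its 3′ end and beyond. A myotube MyoD peak over the 3′ edge (chr13:55269832-55271130) and another 2.31 kb downstream (chr13:55272429-55274194) both scored 3100, at the ceiling. Further peaks lay 5.35 kb downstream, with a score of 1461, and 20.7 kb downstream, with a score of 781, in a window that also holds part of Zfp346. The same 4 sites held MyoD peaks in myoblasts, with scores of 2340, 3100, 1226 and 146 in that list, and MyoG peaks with scores of 1386, 1702, 62.7 and 188 in the MyoG list. Towards the 5′ end the window had no MyoD or MyoG peak: the nearest to the 5′ edge of the mm9 locus was a myotube MyoD peak inside the gene, 13.0 kb from that edge, with a score of 82.9.

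At Fgfr1 (chr8:26629244-26686186) 4 of 7 myotube MyoD peaks lay inside the gene. The highest (chr8:26664739-26666001) scored 3100, at percentile 98.6 of the myotube list, and a MyoG peak at the same place scored 2499. The myoblast MyoD list had a peak there with a score of 148, at percentile 46.9 of its own list. A second intragenic myotube MyoD peak scored 1018, and the window also holds parts of Letm2 and Whsc1l1. Both FGF receptor loci thus held MyoD peaks at the top of the myotube list.

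**Figure D4:**
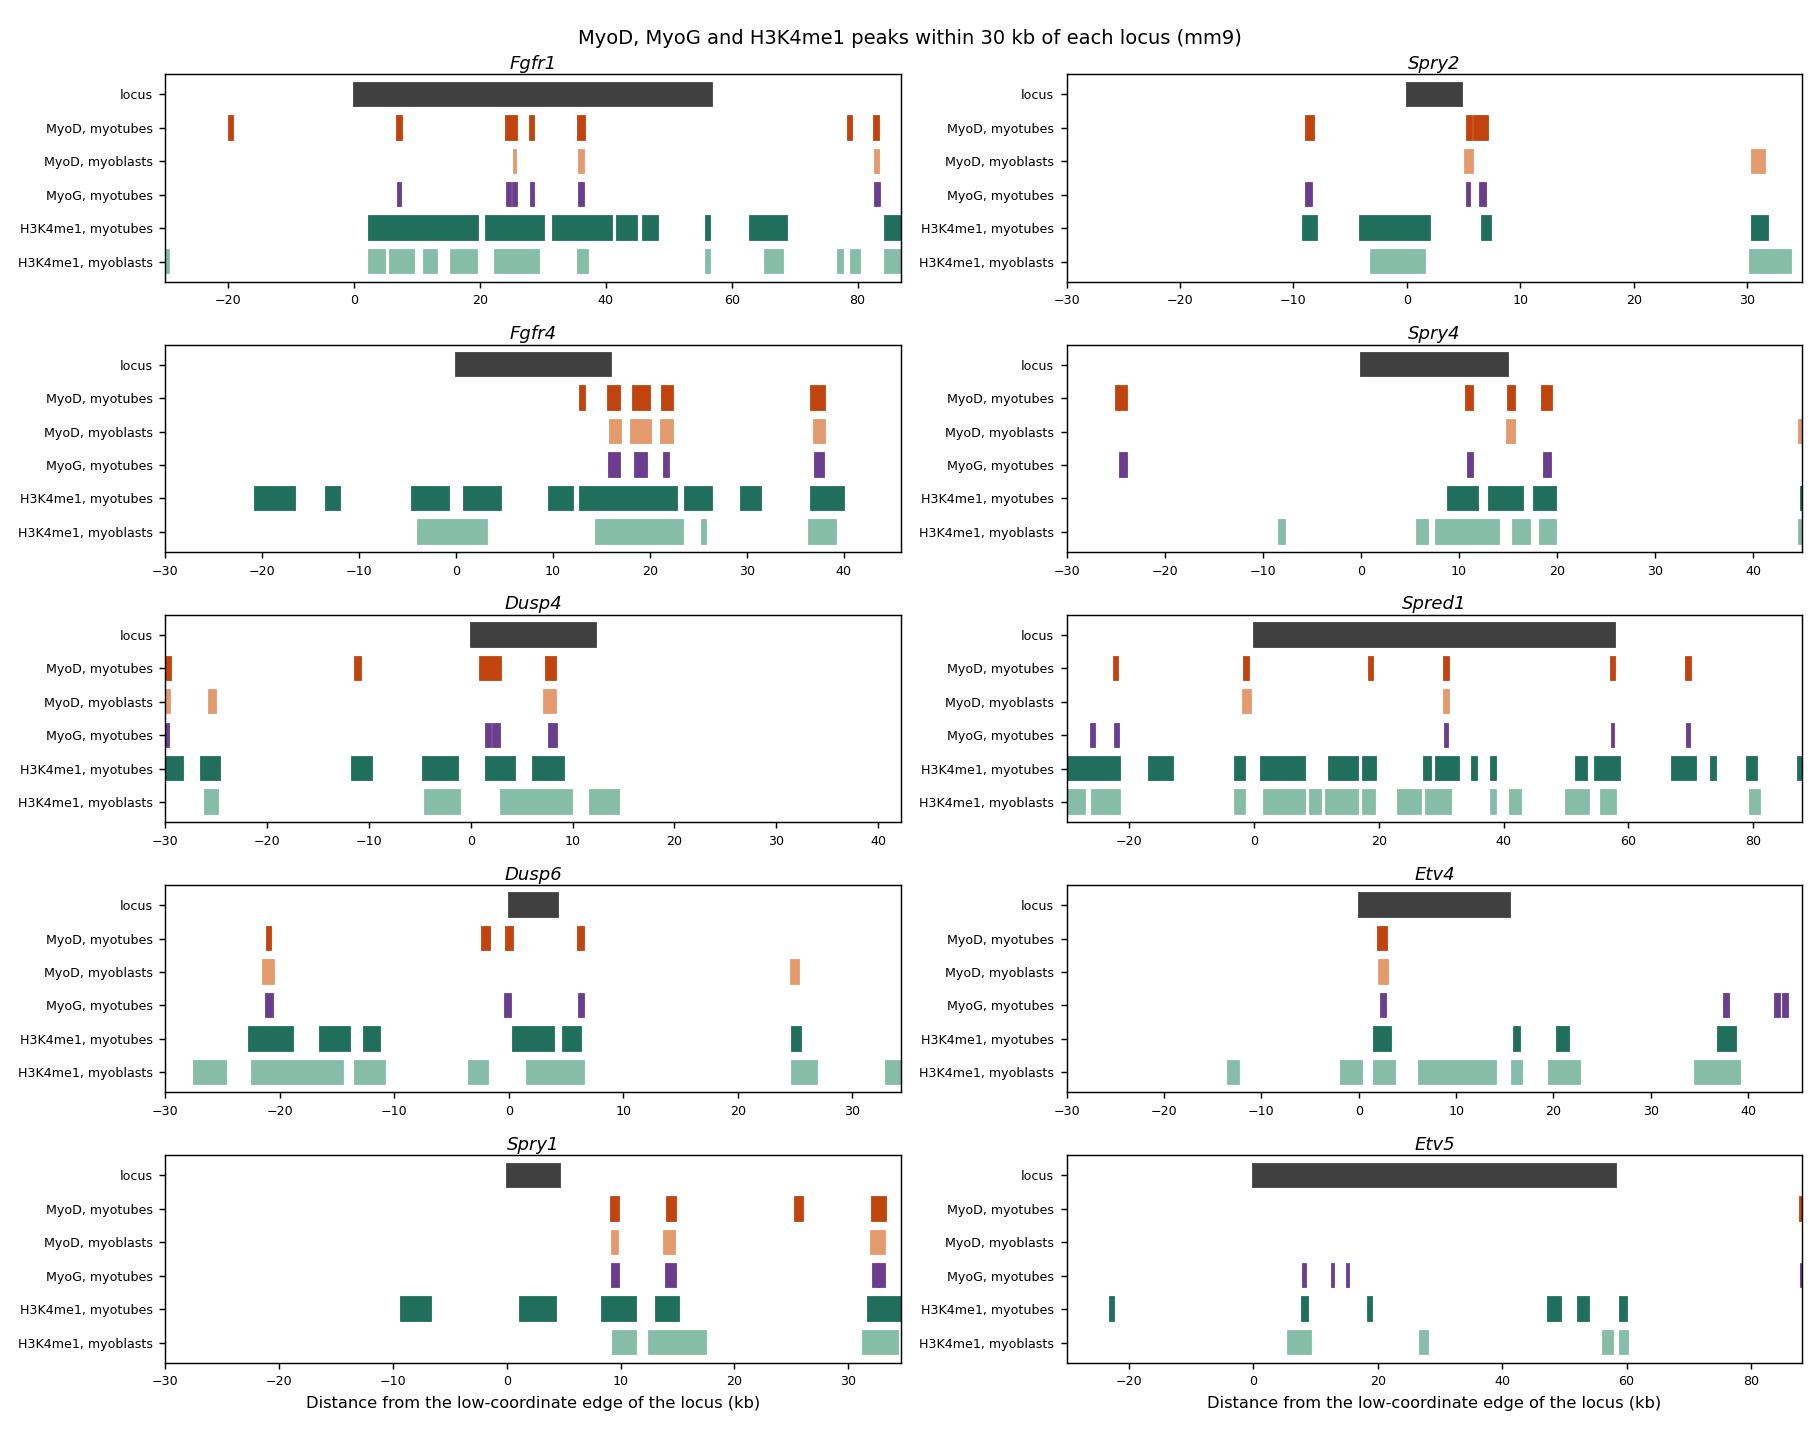
MyoD, MyoG and H3K4me1 peaks within 30 kb of each locus, 1 panel a gene, with distance in kb from the low-coordinate edge of the locus on the horizontal axis and 1 track a library. Bars are drawn to scale, and the Fgfr4 panel shows 4 MyoD sites at and beyond the high-coordinate end that are shared by myotubes and myoblasts, while the Etv5 panel has no myoblast MyoD peak.

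At the feedback genes most scores were lower. Dusp6 (chr10:98725865-98730123) had a myotube MyoD peak (chr10:98725587-98726190, score 70.9) and a MyoG peak (score 80.5) over its 5′ edge, and its highest myotube MyoD peak, 1.64 kb upstream, scored 120, at percentile 35.7 of the list. Dusp4 (chr8:35870664-35882948) had 2 myotube MyoD peaks inside, with scores of 417 and 272. The first overlapped MyoG peaks of score 77.0 and 141 and no myoblast MyoD peak. The second was shared with a myoblast MyoD peak of score 180 and a MyoG peak of score 287. The Dusp4 window also holds part of Tnks.

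Spry1 had no MyoD or MyoG peak inside the gene, and its highest, 27.4 kb downstream, scored 1558 for myotube MyoD, 650 for myoblast MyoD and 519 for MyoG in the 3 lists. Spry2 (chr14:106291164-106296036) had a myotube MyoD peak 0.412 kb upstream of the locus with a score of 154, where MyoD in myoblasts (149.5) and MyoG (118) also had one. Its highest myotube peak, 1.61 kb upstream, scored 267. Spry4 had a MyoG peak of score 1424, at percentile 98.1 of the MyoG list, 3.61 kb from its high-coordinate edge, over a myotube MyoD peak of score 732. Within 30 kb of Spred1 lay 6 myotube MyoD peaks with scores of 116 to 391, of which 3 were inside the gene. Another lay 0.788 kb upstream with a score of 119, over a myoblast MyoD peak of score 83.8 and no MyoG peak. The highest MyoG peak of Spred1, inside the gene, scored 434.

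Etv4 (chr11:101631056-101646624) had 1 MyoD site within 30 kb, inside the gene, with scores of 592 in myotubes and 156 in myoblasts and a MyoG score of 457. Its window held 4 MyoG peaks, and those outside the gene, 21.9 to 28.0 kb away, scored 97.5, 60.6 and 105, with no MyoD peak under them. Etv5 (chr16:22381386-22439643) had no myoblast MyoD peak within 30 kb, the nearest being 39.7 kb away with a score of 60.3. Its myotube MyoD peak (score 250) and the MyoG peak over it (266) lay 29.7 kb upstream, just inside the limit, in a window that also holds part of Dgkg. Inside the Etv5 gene were 3 further MyoG peaks, with scores of 111, 174 and 67.6, none of them over a MyoD peak. Just outside the limit were myotube MyoD peaks at 30.4 kb (score 205) and 31.7 kb (score 538) from Spry4 and at 31.0 kb from Spred1 (score 234), and the next lay 35.3 kb from Dusp4 (score 326).

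H3K4me1, a histone mark of enhancers, was compared between stages in RPM, which here means ChIP reads inside the authors' domains after all domain reads of each library were scaled to the same total. The log2 differences have 1 RPM added to each stage. All 10 loci had domains at both stages, against 77.6% of all loci and 96.6% of those of genes kept in myotubes, and 79.6% and 97.6% in myoblasts. At Etv4 there were 25.0 RPM in myotubes against 105.7 in myoblasts, over 5.4 kb of domains in myotubes against 22.4 kb in myoblasts. The log2 difference of -2.04 was at percentile 5.82 of 16536 windows, and it shrank to -0.29 in a window of 100 kb on each side. A domain of 8 kb inside the Etv4 gene in myoblasts had no counterpart in the myotube list. Dusp6 had 52.8 RPM in myotubes against 116 in myoblasts (-1.12, percentile 12.8, and -0.34 within 10 kb), and Spry4 had 26.4 in myotubes against 44.8 in myoblasts (-0.74).

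Fgfr1 went the other way, with 254 RPM over 50.6 kb in myotubes against 120 over 29.9 kb in myoblasts (1.08, percentile 89.0), a difference of 0.24 within 100 kb. Its MyoD site of score 3100 lay in a myotube domain of 9.4 kb with 4.09-fold ChIP over control, and in a myoblast domain of 1.6 kb with 2.50-fold. Spry1 was also higher, with 46.6 RPM in myotubes against 28.0 in myoblasts (0.71). Fgfr4 had 142 RPM over 33.8 kb in myotubes against 98.1 over 19.4 kb in myoblasts, a difference of 0.53 that is under 1.5-fold. Its myotube MyoD peaks at the 3′ edge and 2.31 and 5.35 kb downstream sat in a domain of 10.0 kb in myotubes and 9.0 kb in myoblasts. The MyoD peak 20.7 kb downstream sat in a separate domain of 3.4 kb in myotubes and 2.8 kb in myoblasts. The windows of Dusp4 (-0.11), Spry2 (-0.30), Spred1 (0.30) and Etv5 (0.01) were under 1.5-fold, and each of these 4 passed 1.5-fold under another setting. Within 100 kb Dusp4 was at -0.77 and Etv5 at 0.88. Among domains at or above the median fold of their list, Dusp4 was at 2.91, Spry2 at -0.72, Spred1 at 0.85 and Etv5 at -0.85. Of the 10 windows, 3 were 1.5-fold or more lower in myotubes, where 25% of all windows were, and 2 were higher, where 21.9% were, and the median of the 10 was -0.05 beside -0.04 over all. These sums cover called domains alone. Reads per kb of domain, not scaled to the library, were lower in myotubes at 6 of the 10 loci and higher at 4. They were 40.9 in myotubes against 45.1 in myoblasts for Etv4 and 44.3 in myotubes against 38.2 in myoblasts for Fgfr1. For Fgfr4, whose sum was higher in myotubes, they were lower there, at 37.2 in myotubes against 48.3 in myoblasts, and for Spry2 they were 31.2 in myotubes against 47.6 in myoblasts.

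**Figure D5:**
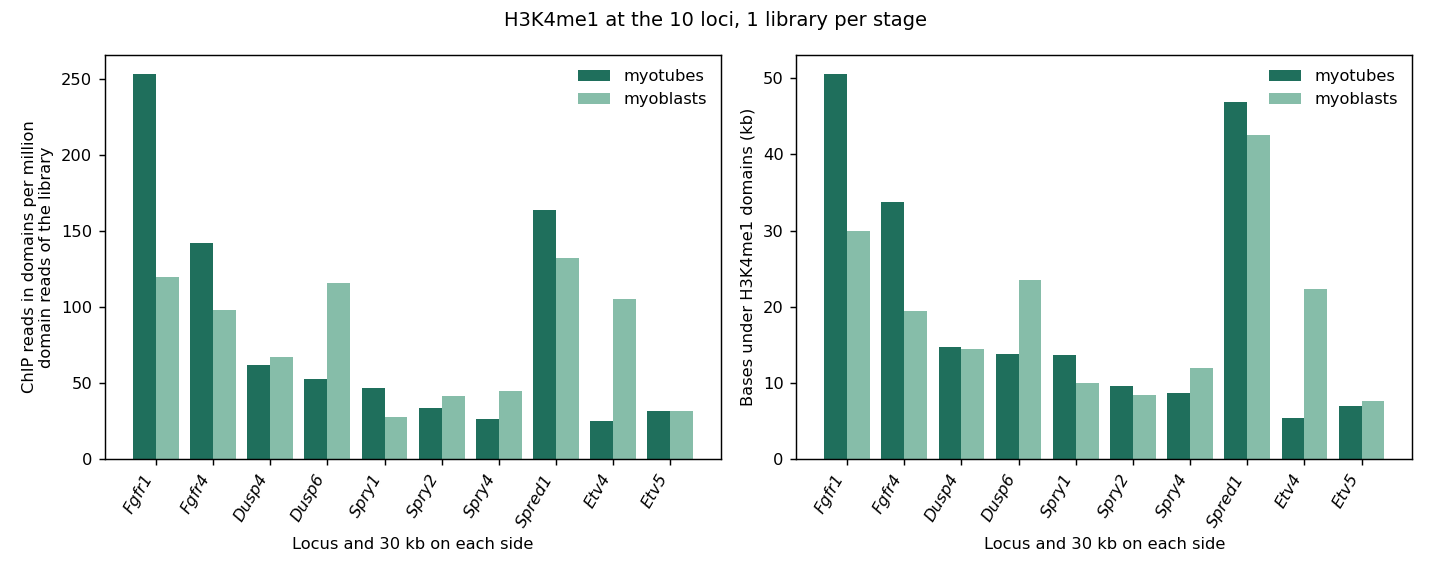
H3K4me1 in RPM, ChIP reads in domains after scaling the domain reads of each library to the same total (left), and kb covered by domains (right) in the window of each locus and 30 kb on each side, 1 library a stage, with myotubes before myoblasts. Windows differ in length with the locus; the myotube bar is lower by 1.5-fold or more at Etv4 (25.0 against 105.7 RPM), Dusp6 (52.8 against 116) and Spry4 (26.4 against 44.8), and higher by as much at Fgfr1 (254 against 120) and Spry1 (46.6 against 28.0).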

How the data were processed

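PolyA RNA of 4 C2C12 libraries and 5 ChIP-seq libraries were used, 9 of 11 samples; total RNA of myotubes and satellite cells was not analysed here. The authors deposited FPKM per coding sequence in 2 tables, 1 per experiment, each normalized on its own, with a p-value and q-value of their own, per the file headers. The submitters' processing notes list TopHat, SICER and the mm9 build and give no versions; other tools are not given in the sources used here. By the labels each table belongs to 2 samples: its GFP condition was taken as the control and the other condition, whose name there differs from the label, as DRRi or pHAN_DRR1.2. The MyoD and MyoG peaks carry a score by the authors, per the file headers, and the H3K4me1 domains, on windows of 200 bp, a deposited count of ChIP and of control reads and a deposited fold. Whether the 2 runs named for each MyoD and MyoG sample were pooled is not given in the sources used here.

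FPKM was summed per symbol. Genes averaging 1 FPKM or more over both conditions were kept, and log2 changes have a pseudocount of 1, which understates changes of low genes. The threshold was 1.5-fold, with 2-fold and the authors' q under 0.05 beside it. With 1 library per group, nothing shows how far separate cultures would differ, and no test was made. RNA read depth is unknown. Peaks were assigned to loci within 30 kb and compared by 1 bp of overlap. H3K4me1 reads were prorated at window edges and divided by 8842751 (myotubes) or 9555012 (myoblasts) domain reads, which are not library depths. Coordinates are mm9, counted from 1. Promoters are RefSeq sequences of GRCm38.p6. The computation was tested on simulated data and used Python 3.11.15, pandas 2.3.3 and numpy 2.4.6.

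The members, lists and thresholds were chosen with earlier results of these data known. All members are named. From each list, genes past 1.5-fold are named, at most 4 per list and experiment with the largest changes first, and for Fgfr4, Dusp4 and Etv4 the 3 nearest genes by their pair of changes. Fgf11, Egr1 and Egr2 were named after their values were seen.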

Additional observations from a re-analysis of the deposited data

How the results depend on the processing

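No paired analysis was possible because each group is 1 library and the labels carry no replicate numbers. RNA read depth is unknown, and no difference has a replicate check. The counts of the 10 genes rest on the threshold. In DRRi, 2 were higher and 0 lower at 2-fold, and 0 higher and 0 lower by the authors' q. In pHAN_DRR1.2, 0 were higher and 0 lower at 2-fold, and 5 were higher with a pseudocount of 0.1, which adds Spry1 (0.59) and Spry4 (0.73), while centring on the median took Etv4 to 0.57, under 1.5-fold. Of the pathway genes outside the 10, 1 was higher and 0 lower in DRRi at 2-fold, and 1 higher and 0 lower by the authors' q. In pHAN_DRR1.2, 0 were higher at 2-fold and 2 by the authors' q, and 1 was lower with a pseudocount of 0.1 and with only the most abundant coding sequence of each gene. The median of the FGF family genes in DRRi became -0.38 at a mean of 5 FPKM or more, which leaves fewer of these genes.

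Peak counts follow the window and the list. Within 100 kb there were 78 MyoD and 71 MyoG peaks in myotubes, 34 MyoD peaks in myoblasts, and 140 H3K4me1 domains in myotubes and 129 in myoblasts. Within 10 kb there were 26 MyoG peaks and 13 myoblast MyoD peaks. Among peaks at or above each list's median score or fold there were 21 MyoD and 21 MyoG peaks in myotubes, 6 myoblast MyoD peaks at 4 of the 10 loci, and 40 H3K4me1 domains in myotubes and 23 in myoblasts. The H3K4me1 difference at Etv4 was -0.29 within 100 kb and -0.21 among domains at or above the median fold, that at Dusp6 was -0.34 within 10 kb, and that at Fgfr1 was 0.24 within 100 kb. Those at Dusp4, Spry2, Spred1 and Etv5 crossed 1.5-fold under at least 1 of these settings, Dusp4 at 2.91 among domains at or above the median fold. Why the H3K4me1 values moved was not tested. Over counts of genes, peaks and loci, 62 values under the alternatives stayed within 1.5 times the value reported and 28 did not, while of 206 single log2 values 24 changed side of 1.5-fold, changed sign or, for list medians, moved by 0.1 or more, and 182 stayed. Of these 182, 2 list medians changed sign when centred, both under 0.02 in size.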
